A study of Mus musculus with 138 samples.

Results

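The cytosolic ribosome is built from a small and a large subunit, each a ribosomal RNA core studded with proteins that are encoded by the Rps genes and the Rpl genes. Ribosomal protein messengers are among the most abundant of growing cells, and many start with a run of pyrimidines, the terminal oligopyrimidine (TOP) pattern, through which the kinase mTOR and the binding protein LARP1 control their translation. A mouse embryo starts life with ribosomes and messengers made by the oocyte, degrades much of that stock, and switches on its own genes most broadly at the 2-cell stage (major zygotic genome activation). Here the cytosolic ribosomal protein genes are followed in 2-cell embryos with and without maternal SMARCA5, the ISWI ATPase that slides nucleosomes.

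Members were chosen by name alone from the gene column of both count tables: names starting with Rpl or Rps and a digit, with Rplp0, Rplp1, Rplp2 and Rpsa. Of 156 lines so named, 60 pseudogene (-ps) lines, 10 Rps6 kinase lines and Rps19bp1 were left out, which left 85 members of 25900 gene identifiers, 52 of the large subunit and 33 of the small subunit. One of them is uncertain: the line named Rpl24 carries the identifier that the GENCODE M21 annotation gives to Zbtb11 and spans both genes, so its counts cannot be split between them. Another, Rps4y2 (Rps4l in GENCODE M21), is annotated there as a transcribed processed pseudogene.

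The series holds poly(A) RNA libraries of mouse 2-cell embryos made with the RNA part of the scNMT-seq protocol, which pairs a transcriptome with methylation and chromatin accessibility. In the deletion experiment, Smarca5 +/- embryos of females whose oocytes lacked Smarca5 and of wild-type males (the maternal deletion group) stand against Smarca5 +/+ embryos (wild type). The titles of both groups name matKO females, and the labels name no strain, Cre driver or age. In the TrimAway experiment, wild-type zygotes received the TRIM21 system with an antibody to SMARCA5 (anti-SMARCA5) or with IgG, or were left uninjected, and were collected at least 24 hours later. TrimAway sends the antibody-bound protein to the proteasome, so the Smarca5 messenger does not report on its effect. The submitters call the replicates technical, each holding pooled embryos, so p-values measure the spread between these libraries.

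After a minimum of 100000 counts, 116 of 135 embryo libraries were kept: 22 wild type, 28 maternal deletion, 31 anti-SMARCA5, 20 IgG and 15 uninjected. Their totals ran from 109007 to 12004992 counts. The 3 wells without an embryo held 453 to 1875 counts in all. Smarca5, on chromosome 8, ran from 158 to 839 CPM (counts scaled to a library total of 1000000) in wild type, median 443, and from 2.99 to 349 CPM in the maternal deletion group, median 82.2. The library labelled maternal deletion in well A04 of replicate 2 stood apart: it held the 349 CPM of Smarca5 and 24.5 CPM of the oocyte messenger Gdf9, whose median in its group was 4377 CPM. Wild-type wells G05 and H05 of replicate 2 held 645 and 350 CPM of Gdf9 against a group median of 52.0. Among IgG libraries, Trim21 was at 0 in all 10 of replicate 1, and replicate 2 had no library above the minimum. In IgG replicate 3, Trim21 was at 0 in 2 of 10 libraries. It was also at 0 in 1 of 31 anti-SMARCA5 libraries, well C02 of replicate 2, where the group median was 1404 CPM. Counts and the main fold changes are given with and without wells A04 and C02.

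The sequences around the annotated start sites are shown first. The TOP pattern and one promoter motif were more frequent in members than in other genes, but most members with a promoter entry lacked each. Of the 85 members, 63 had an entry in the RefSeq promoter table (build GRCm38.p6). A cytosine at the annotated start followed by at least 4 pyrimidines was found in 13 of the 63 (20.6%), against 2.97% of 26962 other genes; a gene with several annotated starts counts where any of them matches. Each line below holds 30 bases, 15 on each side of the start, for 6 of the 13, and capitals mark the pyrimidine run across the start.
Rpl15 (chr14:18270972-18271001, minus strand): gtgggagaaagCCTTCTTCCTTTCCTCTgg
Rpl35 (chr2:39005117-39005146, minus strand): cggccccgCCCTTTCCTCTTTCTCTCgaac
Rps18 (chr17:33955651-33955680, minus strand): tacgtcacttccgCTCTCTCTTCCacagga
Rps27 (chr3:90213634-90213663, minus strand): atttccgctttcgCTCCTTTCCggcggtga
Rps6 (chr4:86857353-86857382, minus strand): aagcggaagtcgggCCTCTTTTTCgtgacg
Rplp2 (chr7:141447636-141447665, plus strand): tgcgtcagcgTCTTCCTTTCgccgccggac

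The ETS-family motif CCGGAAG was searched on both strands (CTTCCGG on the other) of the 250 bases before the start, so it cannot overlap the TOP pattern, which begins at the start. It was present in 18 of the 63 (28.6%), against 7.78% of the other genes. Rpl19 and Rpl39l are shown because they are among the members with the largest falls below. Rps27l is shown because its group medians in wild type and maternal deletion lie closest together in ratio. These lines do not show that the motif goes with a fall. Rpl10l and Rpl7l1, with larger falls, lacked the motif, as did Rpl13 and Rpl27, while Rps25 held it. Rpl19 and Rps27l have 2 annotated starts each, and a single start of each is shown. Capitals mark the motif, and each line holds the 150 bases before the start.
Rpl19 (chr11:98026560-98026709, plus strand): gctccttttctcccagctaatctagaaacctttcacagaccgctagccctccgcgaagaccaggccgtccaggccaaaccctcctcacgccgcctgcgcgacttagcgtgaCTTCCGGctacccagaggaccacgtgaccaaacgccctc
Rpl39l (chr16:10170078-10170227, plus strand): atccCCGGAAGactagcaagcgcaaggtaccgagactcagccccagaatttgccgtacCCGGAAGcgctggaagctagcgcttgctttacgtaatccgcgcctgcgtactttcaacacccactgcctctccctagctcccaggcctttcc
Rps27l (chr9:66945936-66946085, plus strand): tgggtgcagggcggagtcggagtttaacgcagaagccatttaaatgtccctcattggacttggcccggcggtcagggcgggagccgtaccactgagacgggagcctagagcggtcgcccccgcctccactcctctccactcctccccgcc
A match is only a match of letters. For CCGGAAG, its absence says only that these letters are not in the 250 bases before the start. For the TOP pattern, its absence says only that the pattern does not begin at the annotated start, and a pyrimidine run may still lie there.

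Ribosomal protein genes took a smaller share of the library in maternal deletion embryos than in wild type. The 85 members together held 0.401% to 2.63% of the counts of wild-type libraries, median 1.47%, and 0.124% to 2.23% of maternal deletion libraries, median 0.214%. The 2.23% was well A04; without it the highest maternal deletion library was at 0.855% and the median at 0.204%. The replicates, each sequenced in its own lane, differed among wild-type libraries, with a median of 0.638% in replicate 1 and 1.89% in replicate 2. All 13 maternal deletion libraries of replicate 1 lay below the lowest wild-type library of replicate 1, and 13 of 15 did so in replicate 2. In the TrimAway experiment the medians were 0.60% for anti-SMARCA5 (0.0531% to 1.66%), 1.09% for IgG (0.186% to 2.27%) and 1.24% for uninjected embryos (0.750% to 2.74%), and the 3 ranges overlapped. The left-out pseudogene lines held a median of 0.0094% in wild type and 0.00165% in the maternal deletion group.

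**Figure D1:**
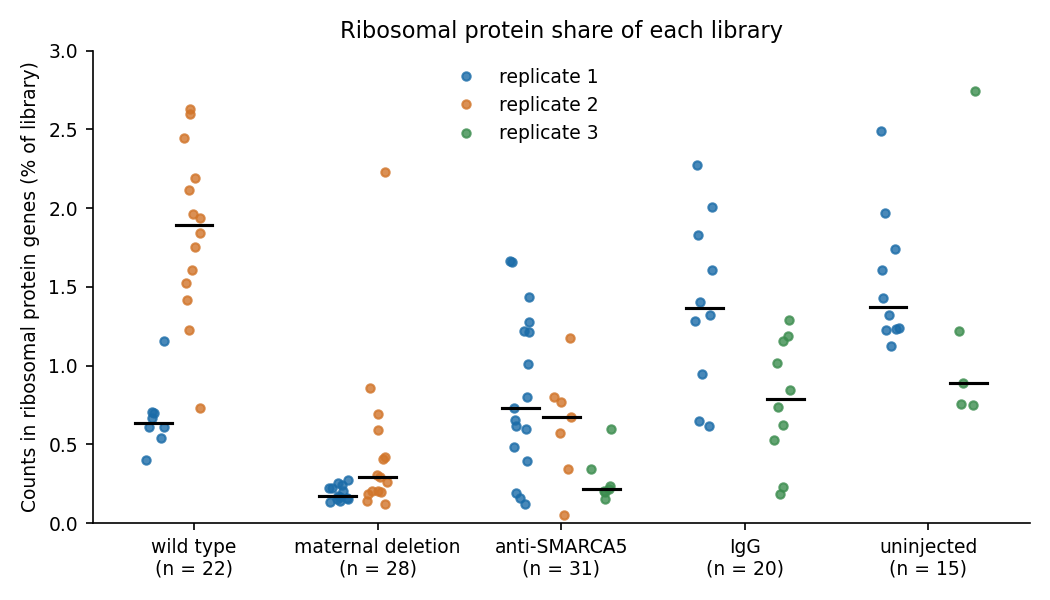
Share of all counts in the 85 ribosomal protein genes (y axis, % of the library) for each kept library, by group and replicate (colours); black lines are medians per replicate. The medians of both maternal deletion replicates lie below those of wild type. Of 28 maternal deletion libraries, 22 lie below the lowest wild-type library, and well A04 stands at 2.23%. The lowest library of all is an anti-SMARCA5 one at 0.0531% (replicate 2, well B02), in which mitochondrial transcripts took 74.2% of the counts. Anti-SMARCA5 libraries of replicate 3 have a median of 0.215% against 0.791% for IgG and 0.888% for uninjected libraries of that replicate.

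In the deletion comparison, 79 of 83 tested members fell and none rose. This was tested with edgeR's quasi-likelihood test at a Benjamini-Hochberg adjusted p under 0.05 over all 8518 genes tested, of which 26.4% were called lower and 30.3% higher. The median log2 fold change of the members was -2.04, and that of all genes tested was 0.18. With library totals in place of TMM factors, the all-gene median moved to -0.04 and the member median to -2.19. In that fit 79 members were lower again, beside 2623 of 8518 genes. Leaving out well A04 gave 78 of 82 members lower, beside 2332 of 8132 genes, and a member median of -2.39. Fitted within replicate 1, 43 of 59 tested members were lower (20.2% of all genes tested), with a median of -2.36. Within replicate 2, 59 of 85 were lower (15.7% of all genes), with a median of -1.72. Without well A04 there it was 69 of 85 (1932 of 9559 genes lower) and -2.05. The difference between the deletion effects of the replicates passed the test for 0 of 83 members (0.763% of all genes), with 6 at an unadjusted p under 0.05.

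Members of both subunits fell. Of the large subunit, 48 of 50 tested members fell, with a median of -1.78, and of the small subunit 31 of 33 fell, with a median of -2.19. The members with the TOP pattern all fell, 13 of 13, with a median log2 fold change of -1.60. Of those without it, 46 of 49 tested fell, median -2.15. The latter include members with a long pyrimidine run across a start that is not a cytosine, such as Rpl7a (21 bases) and Rpl27a (20). This split thus also depends on where the start is annotated. With CCGGAAG upstream 18 of 18 fell, median -2.27, and without it 41 of 44, median -1.98. Many members have near-copies in the genome: over 84 members, the median share of 50-base stretches of the transcript found in another annotated gene was 53.5%. Of members with under 50% shared, 34 of 35 tested fell, median -2.08, and of the others 44 of 47, median -1.96. Members whose exons overlap a gene on the other strand fell in 17 of 18 cases, median -1.74; whether the counting used strand is not given in the sources used here. Without well A04 the medians were -2.03 for the large and -2.64 for the small subunit (47 of 49 and 31 of 33 lower), -1.91 with and -2.46 without the TOP pattern, -2.72 with and -2.28 without CCGGAAG, -2.47 for members with under 50% shared and -2.34 for the others.

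**Figure D2:**
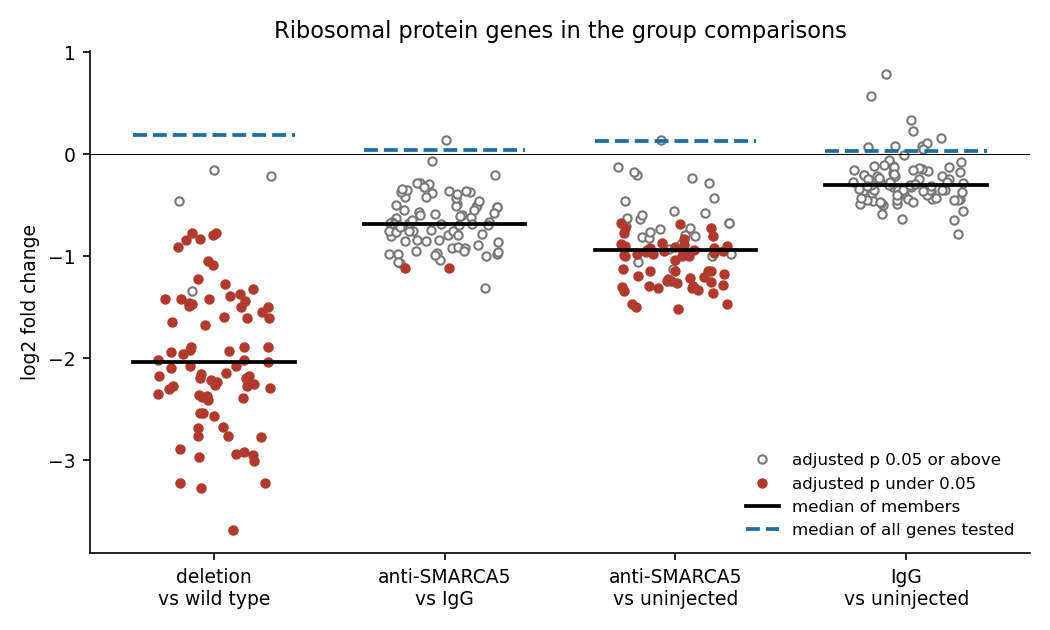
log2 fold change (y axis) of each ribosomal protein gene in 4 comparisons; filled points have an edgeR adjusted p under 0.05, black lines are medians of the members and dashed lines medians of all genes tested. The members' medians are -2.04, -0.68, -0.94 and -0.30 from left to right; the 2 comparisons in the middle share the anti-SMARCA5 libraries, and the last 2 share the uninjected ones.

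Rpl10l, an intronless copy of Rpl10 known from testis, had the largest fall with all libraries kept; without well A04 the value of Rpl19 was lower still. It ran from 22.5 to 313 CPM in wild type, median 156, and from 0 to 134 CPM in the maternal deletion group, median 4.52. All 28 maternal deletion libraries lay below the wild-type median and 25 below the lowest wild-type library; the 134 CPM was well A04, and the next highest library was at 28.02 CPM. Its log2 fold change was -3.69 ± 0.54 (SE; edgeR adjusted p = 1.9e-07) and -4.39 without well A04. At 3 counts, the least read here as a level, a maternal deletion library of median depth stands at 1.85 CPM and one of the lowest depth at 11.3 CPM, and 13 of the 28 held 3 counts or fewer of Rpl10l.

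Rpl19, a large subunit protein, ran from 30.01 to 653 CPM in wild type, median 355, and from 0 to 513 CPM in the maternal deletion group, median 2.87. Well A04 was the 513 CPM, and the next highest maternal deletion library was at 93.5 CPM, so 27 of 28 lay below the wild-type median. The log2 fold change was -3.23 ± 0.61 (SE; edgeR adjusted p = 2.1e-05), and -4.44 ± 0.54 without well A04. Rpl7l1, a paralog of Rpl7 that acts in assembly of the large subunit, ran from 14.9 to 416 CPM in wild type, median 143, against 0 to 185 CPM, median 0.289. It fell by 3.27 ± 0.65 (SE; edgeR adjusted p = 3.9e-05) on the log2 scale, with a value of -4.0 ± 0.62 without well A04, and 15 of 28 maternal deletion libraries held 3 counts or fewer. Among the other large falls were those of Rpl39l (-3.01), Rpl13 (-2.95), Rpl29 (-2.94), Rpl27 (-2.92) and Rps25 (-2.89). Without well A04 these were -3.87 for Rpl39l, -3.38 for Rpl13, -3.22 for Rpl27 and -3.65 for Rps25, and Rpl29 did not pass the filter on low counts.

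At the other end, 4 tested members did not pass. Rps27l, a p53-responsive paralog of Rps27, was among the highest members in every group: it ran from 310 to 2324 CPM in wild type, median 532, and from 49.0 to 1011 CPM in the maternal deletion group, median 481. Its log2 fold change was -0.22 ± 0.30 (SE; edgeR adjusted p = 0.55), with a value of 0.19 within replicate 1 and -0.59 within replicate 2. Rps12, a small subunit protein, had a median of 29.5 CPM in wild type (0 to 65.6) and 13.4 CPM in the maternal deletion group (4.91 to 62.7), with a log2 fold change of -0.46 ± 0.36 (edgeR adjusted p = 0.27). Rpl3, which lies close to the catalytic centre of the large subunit, was low in both groups, with medians of 13.6 and 9.60 CPM and a log2 fold change of -0.16 ± 0.62 (edgeR adjusted p = 0.84); 85.6% of its 50-base stretches occur in another annotated gene. Rpl22l1 had a log2 fold change of -1.34 ± 0.65 (edgeR adjusted p = 0.073), which passed when wells A04, G05 and H05 were left out (-1.52, edgeR adjusted p = 0.0483). Rpl17 and Rpl3l did not pass the filter on low counts; their medians were 15.1 and 6.98 CPM in wild type and 3.23 and 0 CPM in the maternal deletion group.

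Ranked per transcript length, the members changed places between wild type and maternal deletion. Over the 84 members with a length, wild-type medians ran from 4.21 to 1870 CPM per kilobase, and Rpl41 (1870), Rps27l (1067), Rplp0 (652) and Rps27 (617) were among the highest. In the maternal deletion group Rps27l ranked first at 965 CPM per kilobase, while Rpl41 held rank 4 at 166, Rplp0 rank 6 at 72.1 and Rps27 rank 44 at 12.1. Member medians in that group had a middle value of 10.3 CPM and a lowest of 0, and that of Rps27 was 4.16 CPM. There 3 counts stand for 1.85 CPM at the median depth and 11.3 CPM at the lowest. Places among its low members thus rest on few counts. The lowest in wild type were Rpl17 (19.4), Rpl22l1 (19.2), Rpl3 (10.1), Rpl3l (5.08) and Rps20 (4.21), and their ranges over libraries overlapped. Rps20's place rests on its single coding transcript in GENCODE M21, which has 3706 bases, while the other members have at most 2045. The rank correlation of the medians was 0.558 between wild type and maternal deletion, 0.851 between wild type and IgG, and 0.967 between IgG and uninjected embryos, across 84 genes that share their libraries and so are not independent.

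**Figure D3:**
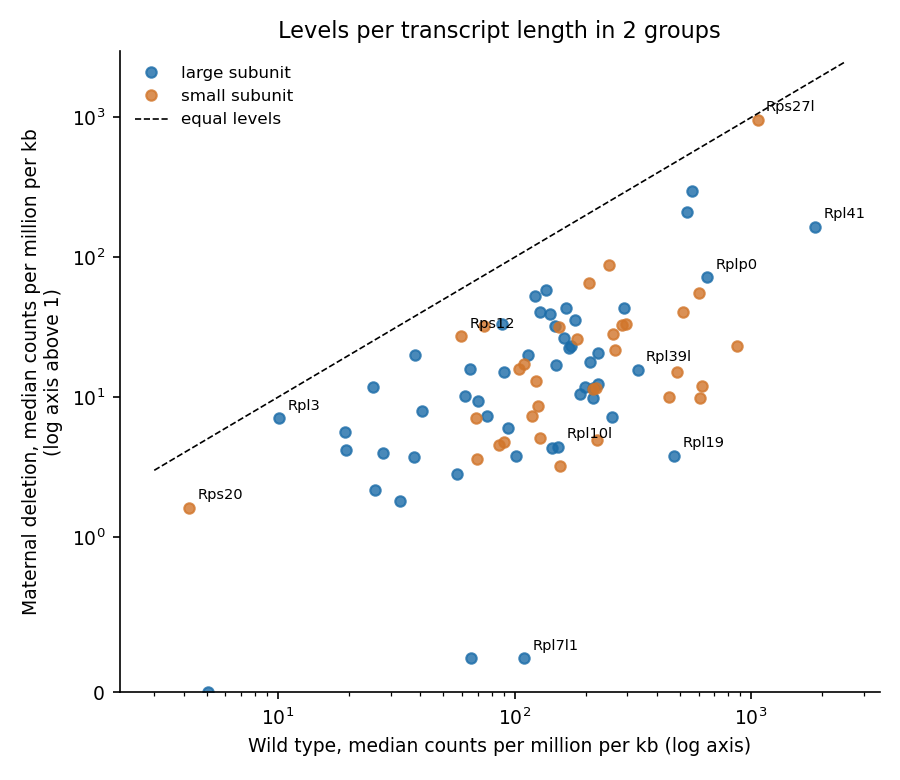
Median level per transcript length of 84 ribosomal protein genes in wild type (x axis, log) and maternal deletion (y axis, log above 1), both in CPM per kilobase, coloured by subunit. Every point lies below the dashed line of equal levels; Rps27l lies nearest to it, at 1067 against 965.

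Anti-SMARCA5 embryos had lower fitted levels than IgG embryos for nearly every member. Few passed the test without the replicate number in the fit, and 60 of 85 passed with it as a block. The values in this paragraph are from the fit without it. Of 85 members, 84 had a negative log2 fold change and 2 were called lower, Rpl36a and Rpl29, both large subunit proteins, against 1.3% of all genes called lower; 43 had an unadjusted p under 0.05. The member median was -0.68 and that of all 10447 genes tested 0.04. Rpl36a ran from 0 to 63.2 CPM in anti-SMARCA5 libraries, median 14.9, and from 19.1 to 133 CPM in IgG libraries, median 48.3, and its log2 value was -1.11 ± 0.33 (SE), with an edgeR adjusted p of 0.0467. Rpl29 ran from 0 to 33.3 CPM, median 12.6, against 1.44 to 71.2 CPM, median 29.2, and its log2 value was -1.12 ± 0.33 (SE), with an edgeR adjusted p of 0.0473. The groups overlapped for both genes. Rpl39l had the most negative value, -1.31 ± 0.45 (SE), and did not pass (edgeR adjusted p = 0.071). Without well C02 it was -1.48 (edgeR adjusted p = 0.0418). In that fit 6 members were lower, beside 233 of 10381 genes called lower (5.02% in either direction).

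The count depended on the replicate, which the design text gives as a separate pool of injected embryos. With the replicate number as a block, 60 of 85 members were lower (13.6% of all genes), with a median of -1.09. Within replicate 1, 1 of 85 was lower (0.343% of all genes), with a median of -0.72. Within replicate 3, 27 of 84 were lower (9.54% of all genes), with a median of -1.67. Without replicate 1, in which the IgG libraries hold no Trim21, 0 of 84 were called, with a median of -0.73. In that fit 0 of all 9402 genes tested were called. At an unadjusted p under 0.05 it held 4 members and 1210 of all genes. Without replicate 2, which only the anti-SMARCA5 group holds, 6 were called lower, beside 254 of 10100 genes called lower (5.85% in either direction). With library totals only, 0 of 85 passed (33 at an unadjusted p under 0.05), beside 0.613% of all genes in either direction. DESeq2 called 11 members lower, beside 451 of 10447 genes called lower (9.85% in either direction).

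Against uninjected embryos, 56 of 85 members were lower in anti-SMARCA5 embryos, with 10.4% of all 10750 genes tested called lower. The member median was -0.94, and that of all genes 0.13. With library totals only, these were -1.20 and -0.29, with 66 members lower, beside 1874 of 10750 genes called lower (21.2% in either direction). Without well C02, 55 members were lower, beside 1124 of 10699 genes called lower (28% in either direction). Large falls were those of Rps18 (-1.52), Rpl36 (-1.46) and Rps4y2 (-1.36). Rps18 ran from 0 to 124 CPM in anti-SMARCA5 libraries, median 22.9, against 23.3 to 240 CPM, median 97.0, in uninjected ones, and its fold change had an SE of 0.47 (edgeR adjusted p = 0.016). The groups overlapped. Within replicate 1, 15 of 85 members were lower (4.5% of all genes), with a median of -0.72, and within replicate 3, 58 of 84 were lower (11.5% of all genes), with a median of -2.32. Without replicate 1, 0 of 84 were called, beside 0.00948% of all 10544 genes tested called in either direction. At an unadjusted p under 0.05 that fit held 44 members and 2261 of all genes. Without replicate 3, 21 of 85 were called lower, beside 610 of 11142 genes called lower (18% of all genes in either direction).

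Between IgG and uninjected embryos 0 of 85 members passed edgeR's test (0% of all genes called lower), with 6 at an unadjusted p under 0.05, and DESeq2 called 0 members as well. The member median was -0.30, at 0.00 within replicate 1 and -0.69 within replicate 3. The highest and lowest values were those of Rpl39 (0.79 ± 0.28, SE) and Rpl36 (-0.78 ± 0.45, SE). Ordered by group median, uninjected embryos were highest for 46 members, wild type for 35 and IgG for 4, while the maternal deletion group was lowest for 83 and anti-SMARCA5 for 2. The deletion and TrimAway experiments were sequenced in different lanes, so levels set across them carry the experiment too.

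**Figure D4:**
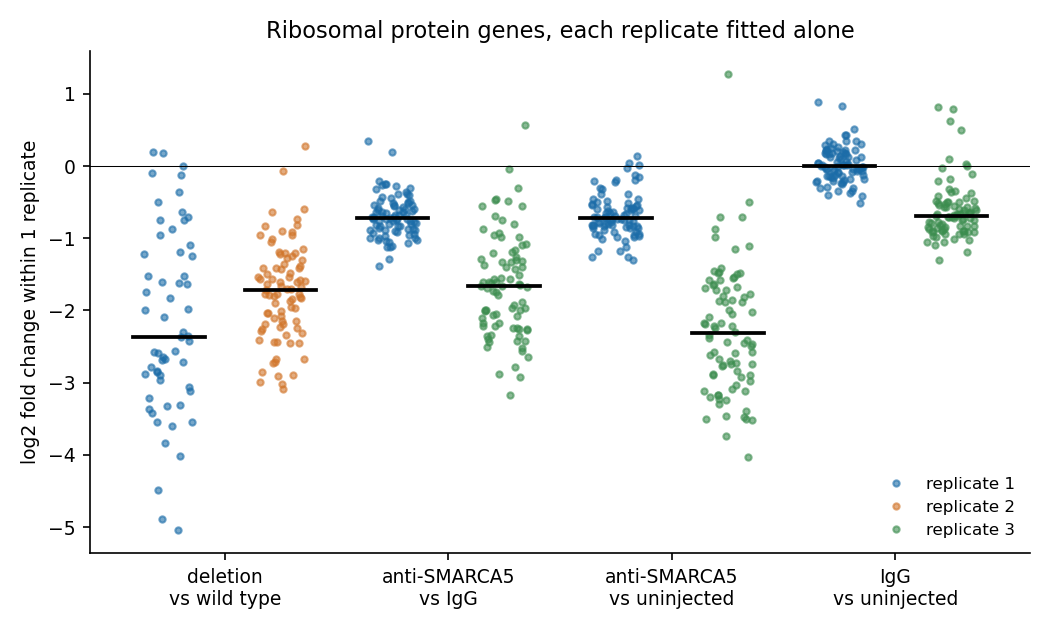
log2 fold change of each ribosomal protein gene (y axis) when each replicate number is fitted alone, for 4 comparisons; black lines are medians. In the TrimAway comparisons replicate 3 lies lower than replicate 1, with medians of -1.67 against -0.72 for anti-SMARCA5 over IgG, -2.32 against -0.72 over uninjected embryos, and -0.69 against 0.00 for IgG over uninjected embryos.

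The deletion effect was larger than the anti-SMARCA5 effect against IgG for some members. The difference of the effects, tested in one edgeR fit over the 4 groups, was called for 27 of 85 members, all of them lower in the deletion (8.73% of all genes called lower), with a median of -1.33. Leaving out well A04 gave 41 members, beside 1297 of 12005 genes called lower. Blocking on the replicate number left 6 (3.68% of all genes), among them Rpl10l, Rps26, Rps16 and the Rpl24 line. Rpl10l differed most: it fell by 3.69 in the deletion and had a value of -0.38 ± 0.45 (SE) between anti-SMARCA5 and IgG, a difference of -3.37 ± 0.71 (SE; edgeR adjusted p = 0.00032), and -3.09 with the block. In anti-SMARCA5 libraries it ran from 0 to 226 CPM, median 76.2, and in IgG libraries from 3.60 to 237 CPM, median 112. Other large differences were those of Rpl7l1 (-2.48), Rpl19 (-2.44) and Rps26 (-2.29). The experiments differ in lane, embryos and handling as well as in how SMARCA5 was removed, and these cannot be told apart.

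The medians of paralogs and of their parent genes stood in different ratios in different groups. Per transcript length, Rps27l had a median of 1067 CPM per kilobase in wild type and Rps27 617, while in the maternal deletion group they were at 965 and 12.1. Rps27 fell by 2.02 ± 0.61 (SE; edgeR adjusted p = 0.0043), but 98.6% of its 50-base stretches occur in another annotated gene, against 22.4% for Rps27l. Rpl10l and Rpl10 stood at 153 and 137 CPM per kilobase in wild type and at 4.42 and 58.3 in the maternal deletion group, where Rpl10 changed by -0.83 ± 0.31 on the log2 scale (SE; edgeR adjusted p = 0.020), which did not pass within either replicate alone. Rpl39l, a paralog of Rpl39 known from male germ cells, stood at 331 and Rpl39 at 173 CPM per kilobase in wild type, and at 15.8 and 23.0 in the maternal deletion group. Rpl39 fell by 1.92 ± 0.40 (SE; edgeR adjusted p = 7.3e-05) and Rpl39l fell by 3.01 ± 0.54 (SE; edgeR adjusted p = 7.4e-06). Without well A04 the values were -2.03 and -3.87, and those of Rps27, Rps27l and Rpl10 were -2.46, -0.22 and -0.94. In anti-SMARCA5, IgG and uninjected embryos Rpl39l stood at 40.9, 209 and 186 CPM per kilobase and Rpl39 at 180, 333 and 275.

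The other pairs are given by their log2 fold changes in the deletion. Rpl7l1 was at -3.27 and Rpl7 at -1.96; Rpl36al was at -2.23 and Rpl36a at -1.44; Rps4y2 was at -2.76 and Rps4x at -1.93; Rpl22l1 was at -1.34 and Rpl22 at -1.46. All of these passed except Rpl22l1. Without well A04 the values were, in the same order, -4.0 and -2.35, -2.70 and -1.60, -3.41 and -2.06, and -1.40 and -1.84, again with Rpl22l1 alone not passing. Rpl3l, a heart and muscle paralog of Rpl3, was the lowest or next lowest member per length in all 5 groups, with group medians from 0 to 5.08 CPM per kilobase. The difference in fold change between a paralog and its parent was not tested.

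**Figure D5:**
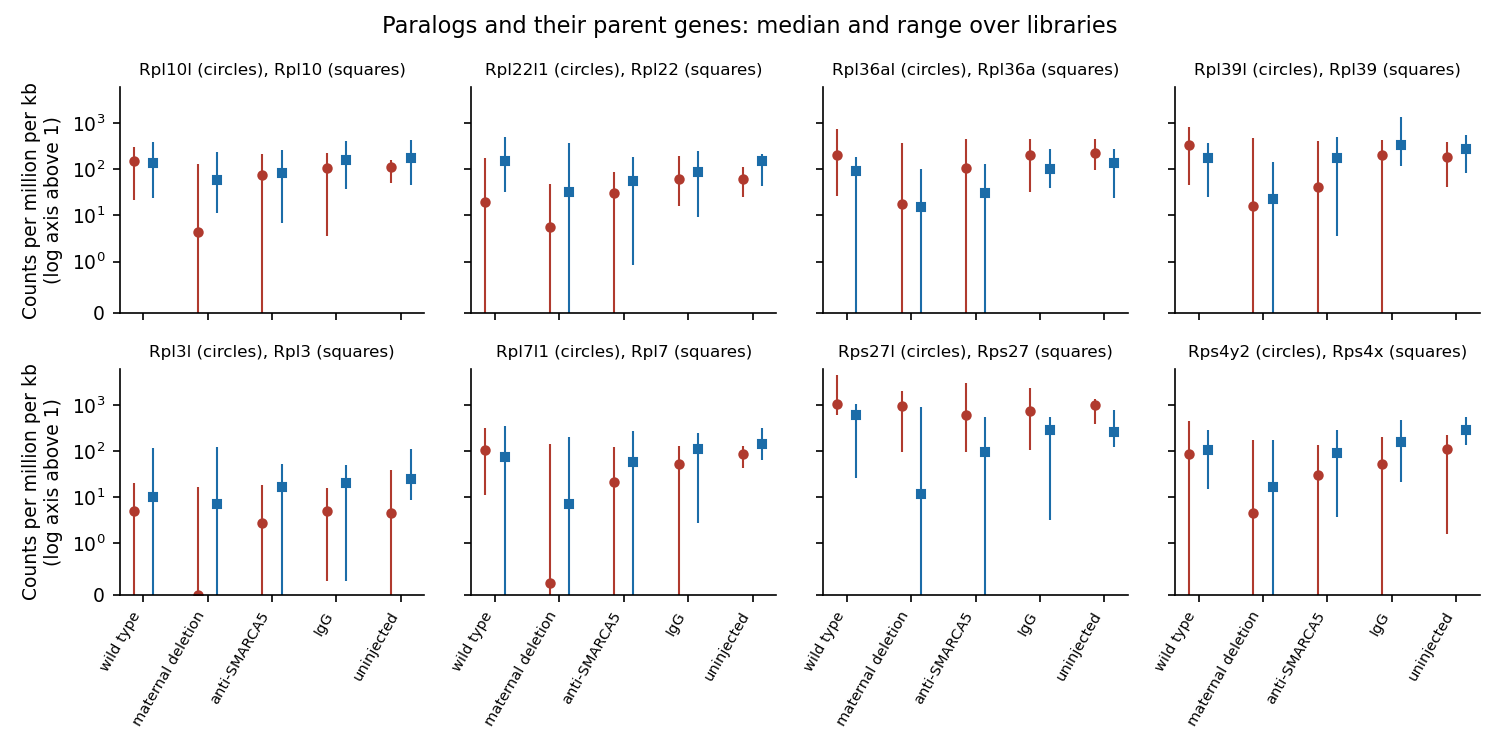
Levels per transcript length (y axis, CPM per kilobase, log above 1) of 8 paralogs (circles) and their parents (squares) in the 5 embryo groups; points are medians and lines the range over libraries. Rps27l stays between 629 and 1067 in all groups, while Rpl10l drops to 4.42 and Rpl7l1 to 0.22 in the maternal deletion group.

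Other genes of the ribosome's supply were counted in the same fits, in which 26.4% of all genes were lower and 30.3% higher in the deletion. Among other TOP messengers, 11 of 17 fell in the deletion and 1 rose, with a median of -1.17: Fau, whose product carries ribosomal protein S30, fell by 2.65 ± 0.46 (SE; edgeR adjusted p = 4.3e-06), Eef2, the translocation factor, fell by 1.95, and Tpt1 rose by 0.996 ± 0.24 (SE; edgeR adjusted p = 0.00057). Eef1a1, the elongation factor, stood at medians of 156 and 136 CPM (log2 fold change 0.05, and -0.08 without well A04). Of the chaperones and importers that carry ribosomal proteins to the nucleolus, 11 of 14 fell and none rose, with a median of -1.54. Grwd1, a chaperone of Rpl3, fell by 3.36, Pdcd2, a chaperone of Rps2, by 3.19, and Ipo5 by 2.18. Of the regulators, 4 of 14 tested fell and 1 rose, with a median of 0.07: Larp1 fell by 2.66 and its relative Larp1b by 3.04, while Mtor had a value of -0.31 (edgeR adjusted p = 0.57). Of the quality control and stress genes, Mdm2 rose by 1.25 and Rnf10 by 1.37, and Usp10 fell by 1.05, of 6 tested. The share of regulators called lower was near that of all genes. Without well A04, 2332 of all 8132 genes were lower. The numbers lower in that fit were 12, 11, 4 and 1, in the order of these lists, with medians of -1.30, -1.63, 0.01 and -0.23. Grwd1 stood at -5.13 there.

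In anti-SMARCA5 against IgG none of the 17 TOP messengers, 14 chaperones or importers, 15 regulators and 6 quality control genes tested passed; the medians were -0.45, -0.52, -0.18 and 0.03. Against uninjected embryos 8 of 17 TOP messengers were lower and 1 higher, and 5 of 14 chaperones and importers were lower, with medians of -0.84 and -0.50, beside 10.4% of all genes lower.

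Stage markers also differed between the groups of the deletion experiment, oocyte markers upward and most tested 2-cell markers downward. The summed level of 7 oocyte markers was 184 to 2627 CPM in wild type, median 752, and 339 to 29710 CPM in the maternal deletion group, median 7719, and all 7 were higher. The summed level of the 5 2-cell markers in the table was 55.9 to 1098 CPM, median 383, against 0 to 1427 CPM, median 28.96; 3 of 4 tested were lower, and Obox3 and Tdpoz4 had a median of 0 in the maternal deletion group. Cumulus cell markers summed to medians of 73.2 and 30.4 CPM, with 1 gene, Amhr2, tested and lower; Amhr2 had medians of 68.4 and 0 CPM, and the other 9 markers had a median of 0 in wild type. Sperm and blood markers had medians of at most 2.20 CPM in both groups. Fewer cells of a kind and less RNA per cell cannot be told apart in such libraries, and the part of the marker differences in the ribosomal protein result was not tested. In the TrimAway experiment none of the marker lists held a called gene in anti-SMARCA5 against IgG. Against uninjected embryos the oocyte markers Bmp15 (1.62, edgeR adjusted p = 0.0023) and Gdf9 (0.75, edgeR adjusted p = 0.032) and the 2-cell marker Zscan4d (1.74, edgeR adjusted p = 0.045) were higher and the oocyte marker Zp3 (-0.88, edgeR adjusted p = 0.020) was lower; their part in that comparison was not tested. Mitochondrial transcripts took a median of 10.6% of the counts in uninjected libraries, 17.0% in IgG and 24.4% in anti-SMARCA5 libraries. With these genes left out, 2 members were lower against IgG (136 of 10204 genes) and 54 against uninjected embryos (1027 of 10465 genes).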

How the data were processed

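Poly(A) RNA libraries of mouse 2-cell embryos were compared across 5 embryo groups, with 3 wells without an embryo as background. The authors deposited raw counts per gene in 2 tables; per the submitters' processing notes the reads were handled with Trim Galore 0.6.5, cutadapt 2.3 and HISAT2 2.1.0 on GRCm38, and the counter, its strand setting and its annotation are not given in the sources used here. In the kept libraries odd counts outnumber even ones (134662 values of 1, 30228 of 2, 84269 of 3 and 23199 of 4), so a count is not simply 1 molecule. No column lay outside the listed samples. The 57 gene identifiers with more than 1 line were summed.

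Libraries under 100000 counts (19 of 135) were left out. Each comparison was fitted over all genes with edgeR 4.0.16 (TMM, filterByExpr, robust glmQLFit, glmQLFTest, limma 3.58.1, R 4.3.3), with Benjamini-Hochberg adjustment over all genes tested and a threshold of 0.05; SE is the log2 fold change divided by the root of F. Alternatives were DESeq2 1.42.0, library totals, no filter, other depth minimums and the replicate block. Others left out each replicate or the libraries that go against their labels. Fits within a replicate, without mitochondrial genes and without well C02 were added after seeing the data. So were the member share without well A04 and the differences between the effects without well A04 or with library totals. The fits were tested on simulated counts. The simulated spread was estimated without the groups in the model, so real group differences counted as spread. The shares recovered can thus be lower than those of the fits on the data. A true log2 change of 1 in size was recovered in 12% of cases for the deletion and 27% for anti-SMARCA5 against IgG. It was recovered in 23% for anti-SMARCA5 and 40% for IgG against uninjected embryos. At a size of 2 the shares were 56%, 78%, 68% and 82%, in the same order. A member that did not pass may thus still have changed.

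Levels between genes are per kilobase of the shortest principal coding transcript of GENCODE M21. Named genes are the 10 largest falls and rises among members called in the deletion, 5 and 5 in each other comparison, the 5 highest and lowest per length in wild type, and paralogs with parents; Rps12, Rps16, Rpl24, Rpl14, Rpl31, Rps28, the members whose sequences are printed for their TOP pattern and the list genes named with values were picked after their values were seen; some members that the rule names are not reported here. Members and lists were chosen with earlier results of these data known. Replicate numbers pair the deletion groups by sequencing lane per the labels (correlation of deviations 0.571) and the TrimAway groups by injected pool per the design text (0.671 for anti-SMARCA5 and IgG, 0.13 for anti-SMARCA5 and uninjected, 0.464 for IgG and uninjected).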

Additional observations from a re-analysis of the deposited data

Results flagged for a closer look

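The deletion effect and the anti-SMARCA5 effect differed, by a test of the difference itself, for 27 members. Each had a lower value in the deletion, beside 8.73% of all genes called lower. Large differences on the log2 scale were -3.37 for Rpl10l, -2.48 for Rpl7l1, -2.44 for Rpl19 and -2.29 for Rps26. With the replicate number as a block, Rpl10l and Rps26 passed and Rpl7l1 and Rpl19 did not.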

How the results depend on the processing

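In the deletion comparison every fit called members lower only, with 79 in the main fit (2245 of 8518 genes lower). The fewest were 43, without replicate 2, that is, within replicate 1, where 59 members were tested (1293 of 6389 genes lower). The most were 81, with no filter on low counts (3740 of 20995 genes lower). Leaving out a replicate gave 43 to 59 (1532 of 9730 genes lower for the 59), and a median log2 fold change of -2.36 to -1.72. The replicate block gave 75 (2196 of 8518 genes lower), losing Rpl14, Rpl31, Rps20 and Rps28. Of single members, Rpl3 turned to 0.28 without replicate 1 (within replicate 2) and 0.23 when well A04 was left out as well, and Rps27l ran from -0.59 without replicate 1 to 0.19 without replicate 2 (within replicate 1). Anti-SMARCA5 against IgG gave 2 lower members (136 of 10447 genes lower), 11 with DESeq2 (451 of 10447) and 0 with library totals (47 of 10447). There were 12 with no filter (708 of 22374), 6 without well C02 (233 of 10381) and 60 with the replicate block (1426 of 10447, member median -1.09). All libraries of at least 1000 counts gave 5 (136 of 9519), and those of at least 500000 counts gave 0 (67 of 10498). Leaving out a replicate gave 0 (0 of 9402) to 6 (254 of 10100), with member medians of -0.73 to -0.71. Replicate 1 alone gave 1 (36 of 10507) and replicate 3 alone 27 (911 of 9547, member median -1.67). Against uninjected embryos the count was 56 (1114 of 10750 genes lower) and 70 with the replicate block (1573 of 10750). Leaving out a replicate gave 0 (0 of 10544) to 58 (1037 of 10283), with member medians of -1.27 to -0.78. It was 15 within replicate 1 (478 of 10632) and 58 within replicate 3 (1004 of 8697), there with a member median of -2.32. For IgG against uninjected embryos every fit called 0 members, beside at most 4.2% of all genes in either direction. The member median was -0.69 without replicate 1 (within replicate 3) and 0.0048, of the other sign, without replicate 3 (within replicate 1). The number of members whose effects differed between the experiments was 27 (1051 of 12035 genes lower) and 6 with the replicate block (443 of 12035). It was 41 without well A04 (1297 of 12005) and 24 with library totals (1023 of 12035). Of all genes called, 57.1% were higher in anti-SMARCA5 against IgG and 26.6% with library totals; against uninjected embryos these were 62.9% and 17.9%. The cause of these changes was not tested. Against IgG, 24 libraries without replicate 1 gave 0 members, and 17 within replicate 3 gave 27. Against uninjected embryos, 19 libraries without replicate 1 gave 0, and 12 within replicate 3 gave 58. The fits without replicate 1 also hold anti-SMARCA5 libraries of replicate 2, which those within replicate 3 do not. They called 0 of all 9402 genes against IgG and 0.00948% of all genes against uninjected embryos. Wild-type libraries limit low levels most: at their lowest depth 3 counts stand for 27.5 CPM, and at their median depth for 5.50 CPM.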

Other observations

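The mitochondrial ribosomal protein genes (names starting with Mrpl or Mrps and a digit) build a separate ribosome in another compartment; they were listed after the data were seen and are described without a test of the list. Of 76 in the table, 59 were tested in the deletion comparison, 30 were lower and 5 higher, with a median log2 fold change of -1.05, beside 26.4% of all genes lower and 30.3% higher. Without well A04 it was 28 lower and 5 higher of 55, with a median of -1.02, beside 2332 lower and 2580 higher of 8132 genes. In anti-SMARCA5 against IgG 1 of 66 was lower, with a median of -0.43 (1.3% of all genes lower), and against uninjected embryos 16 of 68 were lower, with a median of -0.66 (10.4% of all genes lower). Between IgG and uninjected embryos 0 of 68 were called by edgeR, with a median of -0.26.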
